A study of Mus musculus with 30 samples.

Results

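Gene expression was compared between dendritic cells labelled as Rubcn knockout (KO) and as wild type (WT) after 30 min with apoptotic Jurkat cells. The comparison rested on 6 of the 30 RNA sequencing libraries of the series, the 3 titled KO and the 3 titled WT for that treatment and time, and covered every gene with enough counts, 14808 in all. The cells came from mouse bone marrow cultured with FLT3L (200 ng/ml) and were used at day 6 to 7, and Jurkat is a human T-cell leukaemia line. Both genotypes received the same treatment, and the other libraries of the series, used here to estimate the spread and for side by side values, were untreated or were given Jurkat cells for 4 h or ovalbumin (OVA) for 30 min or 4 h. The exons removed, the mouse strain, age and sex, the way apoptosis was induced and the number of Jurkat cells are not stated in the sources used here. Nor do the labels say whether the 3 libraries of a group came from separate mice or cultures, so p-values measure the spread between these libraries, which may be technical, and a difference between single mice cannot be told apart from one due to the knockout.

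Rubcn encodes Rubicon, a protein that binds the class III phosphatidylinositol 3-kinase complex of VPS34, Beclin 1 and UVRAG. It restrains canonical autophagy and is required for LC3-associated phagocytosis, in which LC3 is conjugated to the membrane of a phagosome that holds an engulfed particle such as a dying cell. That process needs the NADPH oxidase NOX2, speeds fusion with lysosomes and is known to shape the cytokines a phagocyte makes after taking up dead cells. Cultures in FLT3L hold plasmacytoid dendritic cells, the main makers of type I interferon, and conventional dendritic cells of type 1, which take up dead cells and cross-present their antigens on MHC class I, and of type 2.

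Levels are given in CPM, each gene's count as a share of its library's scaled total, with the replicates of a group always in the order 1, 2 and 3, and differences as log2 of KO over WT. A gene was called when its Benjamini-Hochberg adjusted p (FDR) from edgeR's quasi-likelihood test was under 0.05 over all genes tested. The 6 libraries held 42.3 to 50.8 M counts. Rubcn, the targeted gene (mm10, chromosome 16, 32821702 to 32868366), stood at 66.2, 69.9 and 69.6 CPM in KO and 79.5, 80.5 and 82.7 CPM in WT. The groups did not overlap, but most of the signal remained in KO, and whole-gene counts do not resolve exons (log2 fold change -0.24, SE 0.0476, FDR 0.00148). Markers of the labelled cell type were high in all 6 libraries: Flt3, the receptor for FLT3L, at 544, 559 and 555 CPM in KO and 546, 558 and 554 CPM in WT; Itgax, encoding CD11c, at 467, 466 and 473 CPM in KO and 437, 433 and 464 CPM in WT; and the MHC class II gene H2-Ab1 at 4951, 4951 and 4920.1 CPM in KO and 4965, 5094 and 4968 CPM in WT. Zbtb46, a transcription factor of conventional dendritic cells, stood at 82.1, 78.3 and 78.9 CPM in KO and 77.9, 81.4 and 83.2 CPM in WT.

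KO replicate 1 stood apart from the other libraries in the number of genes far above the rest of its group. In KO replicate 1, 41 genes of at least 5 CPM were at least 2-fold above both other KO libraries, against 0 such genes in KO replicates 2 and 3 and 0, 0 and 1 in the WT libraries. Most of the 41 are interferon-stimulated genes or guanylate-binding proteins, with chemokine and cytokine genes among the rest. Each result they touch is therefore given with all 6 libraries and without KO replicate 1. Among the other groups WT replicate 3 of 4 h OVA held 29 such genes, KO replicate 2 of 4 h Jurkat cells 10 and KO replicate 2 of 30 min OVA 8, and the rest of these libraries at most 1. The WT libraries were not uniform either. By chi-square per degree of freedom over all genes compared, WT replicates 1 and 3 agreed least (16.6). KO replicate 1 stood at 12.5 against KO replicate 2 and 13.1 against KO replicate 3.

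With all libraries 1370 of 14808 genes were called, 9.25% of those tested, with 826 higher in KO (5.58%) and 544 lower (3.67%). Every count of list members called below is to be read beside these shares. A count near them is no result about the members. Only 105 genes (0.709%) were called and changed at least 2-fold, 74 higher and 31 lower. Without KO replicate 1 there were 1139 calls (7.59%), 665 higher (4.43%) and 474 lower (3.16%). The count was 808 without KO replicate 3, 894 without WT replicate 1 and 708 without WT replicate 2, and 891 when the 6 libraries were fitted alone. Irrespective of any test, the 3 KO and 3 WT levels did not overlap in 3843 genes, 26.0% of those tested.

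Many of these differences were already present in cells that had received no Jurkat cells. In untreated cells 1477 genes (9.97%) differed between the genotypes, 889 higher in KO (6.0%) and 588 lower (3.97%), and 687 of them were also called with Jurkat cells, which is 50.1% of the Jurkat calls and 46.5% of the untreated calls. Of the 687, 685 differed in the same direction. After 30 min of OVA, a soluble protein, 1834 genes were called (12.4%), 926 higher (6.25%) and 908 lower (6.13%), and 656 were shared (47.9% of the Jurkat calls, 35.8% of the OVA calls), 648 of them in the same direction. In all 3 conditions 534 genes passed, 352 of them with KO above WT and 182 with KO below WT. A further 561 were called with Jurkat cells and in neither other condition, 288 higher and 273 lower. Such a gap in calls is not a difference between conditions: tested directly, the genotype difference with Jurkat cells departed from that in untreated cells in 1 gene (0.00675%) and from that with OVA in 11 (0.0743%).

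More interferon-stimulated genes fell in KO than rose. Their products block viral replication, sense nucleic acids or relay the interferon signal, and they are switched on by signals from the type I interferon receptor. Of 55 members tested, 22 fell, 3 rose and the others were not called, against 3.67% lower and 5.58% higher of all genes. The median log2 fold change was -0.13 against -0.0028 over all genes tested. Their summed level was 5694, 3717 and 3897 CPM in KO and 5566, 5280.1 and 4997 CPM in WT, so the genotypes overlapped and KO replicate 1 was the highest library (exact permutation p = 0.4, two-sided). Without KO replicate 1, 43 fell, none rose, and the median was -0.50. In untreated cells 51 were lower (median -0.81) and after 30 min of OVA 46 (median -0.83). In 16 of the 55 the genotypes did not overlap, which is near the 26.0% of all genes tested. Markers of plasmacytoid dendritic cells, which respond to interferon and share Bst2, Ly6c2 and Irf7 with this list, summed to 6329, 6128 and 6144 CPM in KO and 6766, 6847 and 6803 CPM in WT. In whole cultures fewer cells of a type and less RNA per cell cannot be told apart, and the part of those cells in the lower interferon-stimulated genes was not tested.

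In some genes that fell, KO replicate 1 lay close to the other KO libraries or well under WT. The log2 falls of Ifi44 and Oas1g, given below, were larger. Ly6c2, a surface antigen of monocytes and plasmacytoid dendritic cells that interferon induces, stood at 50.2, 51.2 and 51.6 CPM in KO and 131, 126 and 106 CPM in WT. All KO libraries were below all WT libraries (log2 fold change -1.25, SE 0.0805, FDR 2.31e-11), and without KO replicate 1 the log2 fold change was -1.23. Ifi27l2a, a small interferon-induced membrane protein, stood at 71.5, 70.6 and 68.3 CPM in KO and 205, 188 and 155 CPM in WT, again without overlap (log2 fold change -1.38, SE 0.0945, FDR 6.48e-11). Ly6a, encoding Sca-1, stood at 203, 166 and 163 CPM in KO and 392, 344 and 327 CPM in WT (log2 fold change -0.998, SE 0.077, FDR 7.3e-10). In its case KO replicate 1 was the highest of the KO libraries but still well under WT.

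In the next genes KO replicate 1 lay between the rest of its group and WT. Ifi44, encoding an interferon-induced cytoplasmic protein, stood at 10.6, 3.28 and 3.799 CPM in KO and 26.96, 24.9 and 20.5 CPM in WT, so that KO replicates 2 and 3 held less than KO replicate 1 but all were under WT (log2 fold change -2.03, SE 0.211, FDR 1.88e-07; log2 -2.76, FDR 2.3e-13 without KO replicate 1). Oas1a, an enzyme that makes the 2-5A messenger on sensing double-stranded RNA, stood at 24.1, 14.6 and 13.4 CPM in KO and 32.5, 30.6 and 29.97 CPM in WT (log2 fold change -0.84, SE 0.117, FDR 2.12e-05; log2 -1.15, FDR 2.4e-11 without KO replicate 1). Its paralog Oas1g, whose count is uncertain because of close copies, stood at 3.49, 1.53 and 1.63 CPM in KO and 6.61, 5.92 and 5.41 CPM in WT (log2 -1.43, FDR 1.09e-06). Rtp4 stood at 17.9, 8.85 and 10.4 CPM in KO and 26.8, 24.9 and 23.1 CPM in WT (log2 -1.01, FDR 2.17e-05; -1.37 without KO replicate 1). The libraries did not overlap in any of these 4 genes.

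Genes of the interferon signal itself, and Mx1, were chosen after their values were seen. Irf9, a DNA-binding factor of the interferon response, stood at 123, 115 and 111 CPM in KO and 138, 142 and 135 CPM in WT (log2 -0.25, FDR 0.000515). Irf7, the factor through which plasmacytoid cells amplify interferon, stood at 163, 79.9 and 88.5 CPM in KO and 153, 148 and 143 CPM in WT. KO replicate 1 was above every WT library and the other KO libraries were far below, so that Irf7 was not called with it (log2 -0.42, FDR 0.0799) and was called lower without it (log2 -0.81, FDR 1.47e-06). Mx1, an antiviral GTPase, followed the same pattern at 234, 105 and 113 CPM in KO and 159, 153 and 151 CPM in WT (log2 -0.03, FDR 0.94; log2 -0.50, FDR 7.66e-06 without KO replicate 1).

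For Isg15, Ifit1 and Ifit2 the sign of the estimate turned without KO replicate 1, and Rsad2 lost its call. Isg15, a ubiquitin-like modifier, stood at 52.6, 10.1 and 14.8 CPM in KO and 23.9, 20.5 and 17.6 CPM in WT, not called with all libraries (log2 0.32, FDR 0.581) and lower in KO without KO replicate 1 (log2 -0.73, FDR 0.00327). Ifit1, which binds viral RNA, stood at 57.9, 7.59 and 12.2 CPM in KO and 12.9, 9.66 and 8.73 CPM in WT and was called higher (log2 1.31, FDR 0.0302), but without that library the log2 fold change was -0.07 with an FDR of 0.876. Ifit2 stood at 118, 18.8 and 28.03 CPM in KO and 33.4, 26.01 and 24.1 CPM in WT (log2 0.98, FDR 0.0769; log2 -0.25, FDR 0.439 without KO replicate 1). Rsad2, encoding the antiviral enzyme viperin, stood at 106, 10.4 and 20.3 CPM in KO and 12.8, 11.9 and 11.6 CPM in WT, and its call (FDR 0.00447) was lost without KO replicate 1 (log2 0.34, FDR 0.352). All 4 were named after their values were seen. In Isg15, Ifit1 and Ifit2 KO replicates 2 and 3 lay within or below the WT range, and in Rsad2 replicate 2 lay below it and replicate 3 above it.

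**Figure D1:**
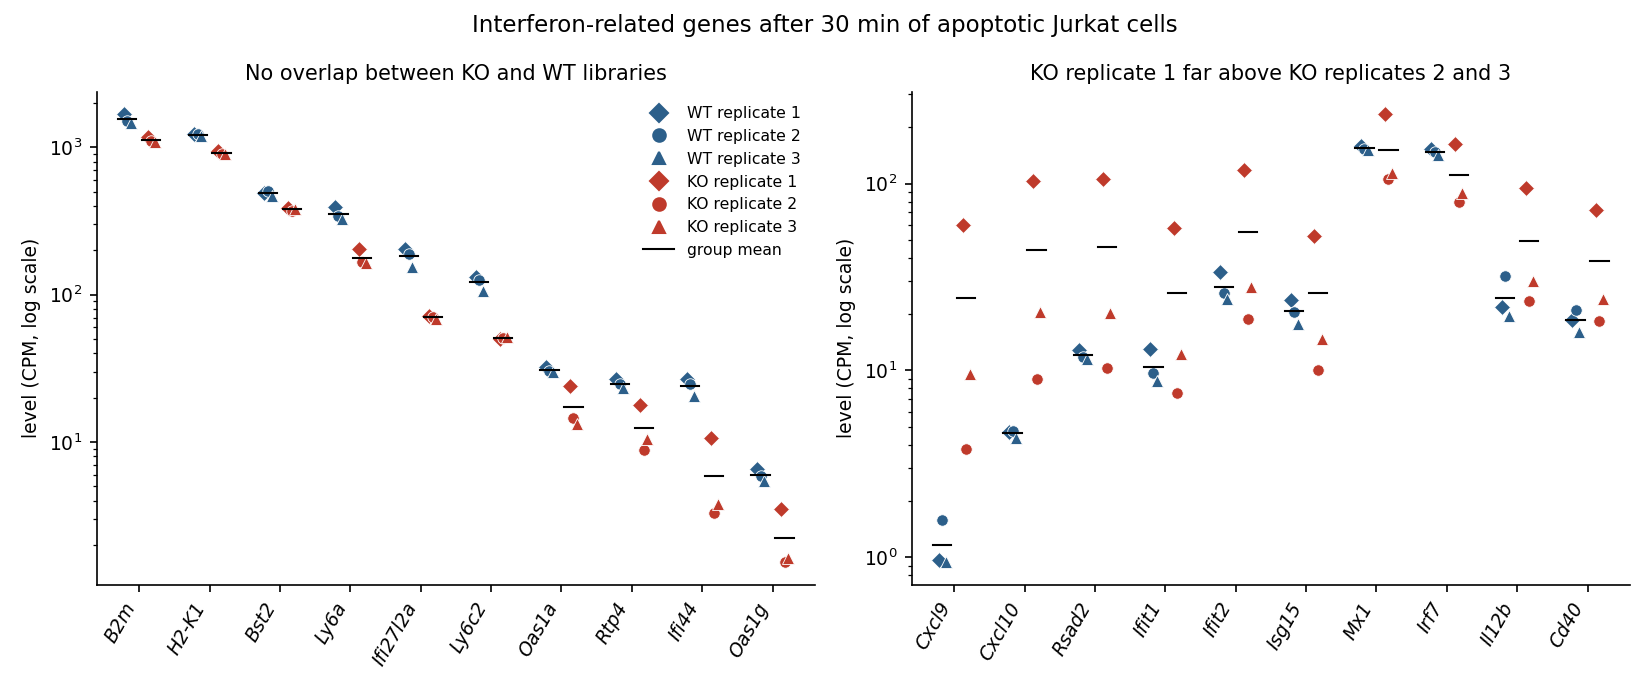
Levels of 20 interferon-related genes in each library after 30 min of apoptotic Jurkat cells, in CPM on a log axis, with KO in red, WT in blue, a symbol for each replicate and a bar at each group mean. On the left all KO libraries lie under all WT libraries; on the right KO replicate 1 (red diamonds) lies above KO replicates 2 and 3, as for Rsad2 at 106, 10.4 and 20.3 CPM.

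Promoter sequences are shown to place members of both patterns side by side. The core of the interferon-stimulated response element, taken as GAAA and GAAA with any 2 bases between them, was searched on both strands from 250 bases before to 50 bases after each start in RefSeq's table (build GRCm38.p6), where 3.44% of 32851 windows hold it. Of the 55 interferon-stimulated genes tested, 40 had a window and 21 of these (52.5%) a match, against 3.94% of the 11595 tested genes with a window. Each line runs 5′ to 3′ on the gene's strand, with matches in capitals, read on either strand, and neighbouring matches overlap in Oas1a, Bst2 and Isg15. Oas1a (minus strand, chr5:120907526-120907570), Bst2 (minus, chr8:71537562-71537627) and B2m (plus, chr2:122147523-122147582) were lower in KO in all 3 libraries.
Oas1a: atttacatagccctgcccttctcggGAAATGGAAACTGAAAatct
Bst2: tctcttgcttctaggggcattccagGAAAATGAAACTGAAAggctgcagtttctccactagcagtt
B2m: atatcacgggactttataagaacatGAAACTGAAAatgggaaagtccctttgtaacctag
Cxcl10 (minus strand, chr5:92349068-92349127), Ifit1 (plus, chr19:34640760-34640838) and Isg15 (minus, chr4:156200850-156200921) were high in KO replicate 1.
Cxcl10: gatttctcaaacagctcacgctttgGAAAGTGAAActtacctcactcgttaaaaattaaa
Ifit1: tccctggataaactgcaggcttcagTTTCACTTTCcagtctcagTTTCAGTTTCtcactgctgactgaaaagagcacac
Isg15: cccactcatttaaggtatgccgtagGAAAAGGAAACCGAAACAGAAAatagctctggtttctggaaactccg
The same letters thus stood in promoters of both kinds. Among the genes called lower in KO, 31 of 420 with a window (7.38%) held a match, and among those called higher 26 of 609 (4.27%).

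The 41 genes that set KO replicate 1 apart are genes that Jurkat cells raised strongly by 4 h. Each was at least 21.4-fold higher in KO after 4 h of Jurkat cells than in untreated KO. The excess of KO replicate 1 over the mean of KO replicates 2 and 3 was taken as a share of the mean level in the KO 4 h libraries. That share had a median of 4.85% and ran from 4.22% to 6.04% over the 41 genes, of which 18 were among the 1370 called. Ccl22, for example, stood at 351, 117 and 141 CPM in the KO libraries at 30 min and at 4903 CPM at 4 h, and Il6 at 7.15, 0.899 and 1.71 CPM and at 125.6 CPM. The share varied little while the 4 h levels ran from 85.9 CPM for Dnase1l3 to that of Ccl22.

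A second set was chosen without any 30 min library: 64 genes of at least 50 CPM after 4 h of Jurkat cells and at least 20-fold above untreated cells, in both genotypes. Their rise over untreated cells at 30 min was expressed as a share of the rise at 4 h in the same genotype. The median share was 5.58% in KO replicate 1, 0.521% in KO replicate 2 and 1.12% in KO replicate 3. In the WT libraries it was 0.223%, 0.225% and 0.0197%, and in the 6 libraries of 30 min OVA it was 0.0476% to 0.231%. All 3 KO libraries given Jurkat cells thus lay above the 3 WT libraries in this median, and KO replicate 1 lay far above the rest. A fit without KO replicate 1 therefore still compares KO libraries of a higher share with WT libraries of a lower one. The part of this in genes raised by 4 h, such as Cxcl9, Cxcl10 and Il6 below, was not tested. With KO replicate 2 of 4 h left out of the 4 h mean, an alternative chosen after seeing the data, the median share over the 41 genes was 4.79% (4.14% to 5.88%). What set this library apart was not tested: material of a 4 h library in it and an earlier response of its cells cannot be told apart in these counts, so its values may not be those of cells at 30 min.

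**Figure D2:**
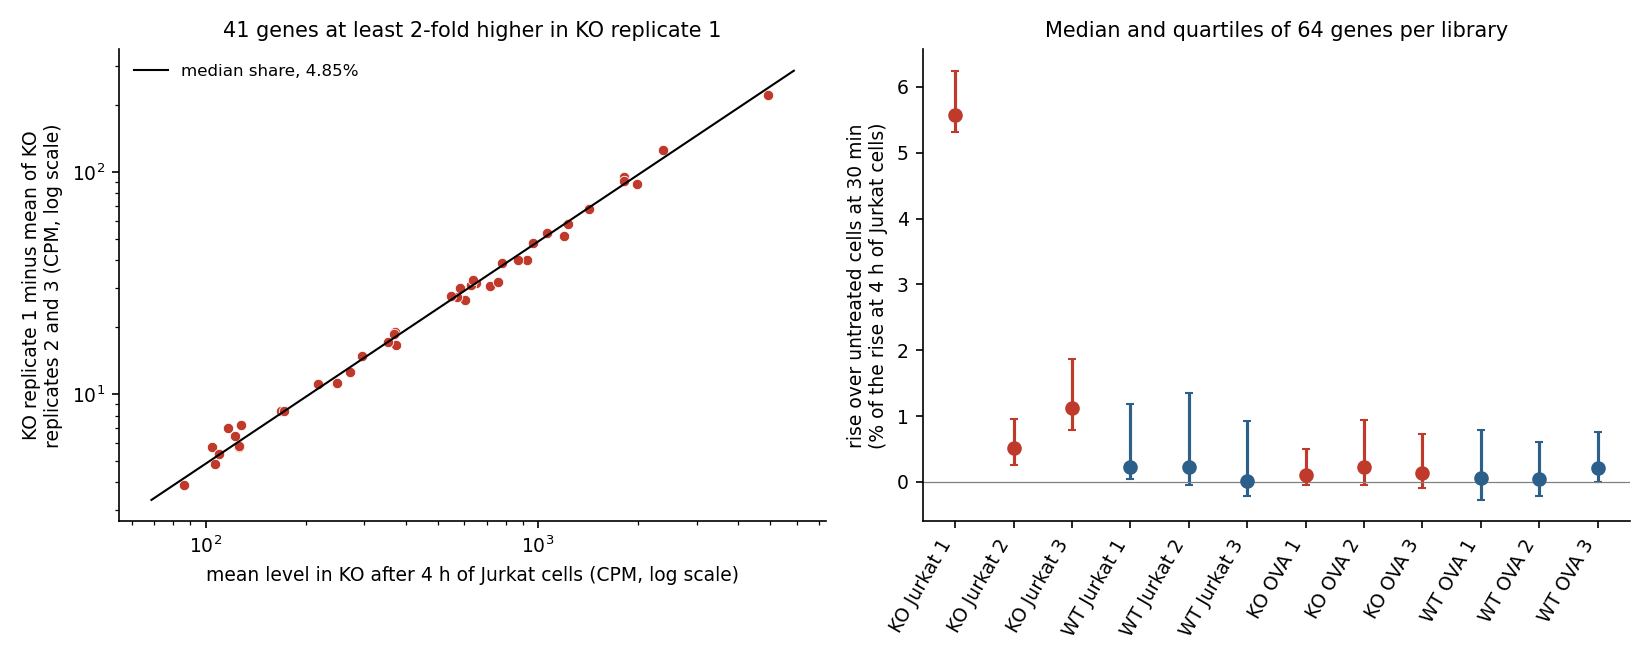
Left, the 41 genes at least 2-fold above both other KO libraries in KO replicate 1, with the excess in CPM against the mean level in KO after 4 h of Jurkat cells, both on log axes, and a line at the median share of 4.85%. Right, for 64 genes raised by 4 h of Jurkat cells, the median (point) and quartiles (bars) of the rise at 30 min as a percentage of the rise at 4 h in each library; KO Jurkat replicate 1 is at 5.58% and every other library at 1.12% or less.

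Chemokine genes were among the largest rises, and the size of several rested on KO replicate 1. Of 26 tested, 9 rose and 1 fell, against 5.58% and 3.67% of all genes, with a median log2 fold change of 0.33. Without that library 4 rose, 1 fell and the median was 0.17. Cxcl9, a ligand of CXCR3 that draws T cells, stood at 59.8, 3.81 and 9.62 CPM in KO and 0.963, 1.58 and 0.939 CPM in WT. Every KO library was above every WT library (log2 fold change 4.405, SE 0.666, FDR 6.52e-05; log2 2.54, FDR 3.47e-05 without KO replicate 1). Cxcl10, another CXCR3 ligand, stood at 103, 8.99 and 20.6 CPM in KO and 4.704, 4.76 and 4.32 CPM in WT, also without overlap (log2 fold change 3.26, SE 0.488, FDR 5.76e-05; log2 1.69, FDR 2.01e-05 without KO replicate 1). In untreated cells and with OVA the same genes had log2 fold changes of -0.52 and -0.26 for Cxcl9 and of -0.60 and -0.68 for Cxcl10, none of them called. Tested directly, the genotype difference with Jurkat cells departed from that in these conditions for neither gene at the FDR used. KO replicates 2 and 3 also lay above WT in the share of the 4 h rise given above, and the part of this in both rises was not tested.

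Cxcl1, a neutrophil attractant, was less uneven at 11.1, 7.09 and 8.14 CPM in KO and 4.88, 5.46 and 4.17 CPM in WT, and stayed called without KO replicate 1 (log2 fold change 0.86, SE 0.133, FDR 8.12e-05; log2 0.66 without it). Cxcl11, the third CXCR3 ligand, was scarce at 2.71, 0.146 and 0.608 CPM in KO and 0.0875, 0.0677 and 0.0188 CPM in WT (log2 4.29, FDR 0.00234), and KO replicate 1 left out its log2 fold change was 2.68. Ccl5, which attracts T cells and is interferon-inducible, was the member that fell, at 108, 91.4 and 95.6 CPM in KO and 129, 131 and 121 CPM in WT, without overlap (log2 fold change -0.37, SE 0.0666, FDR 0.000519), and it was lower in KO in untreated cells (log2 -0.42) and with OVA (log2 -0.41) as well. Ccl22, a CCR4 ligand chosen after its values were seen, was not called (351, 117 and 141 CPM in KO and 136, 168 and 129.9 CPM in WT; FDR 0.169), and its log2 fold change turned from 0.49 to -0.17 without KO replicate 1.

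Cytokine genes also tended to be higher in KO: 10 of 32 tested rose and none fell (median 0.28), against 5.58% and 3.67% of all genes. Without KO replicate 1, 5 rose and 1 fell (median 0.11). Csf1, the macrophage growth factor, stood at 59.8, 56.9 and 58.8 CPM in KO and 38.01, 38.9 and 42.6 CPM in WT, with tight groups and no overlap (log2 fold change 0.55, SE 0.0679, FDR 2.87e-06). It was higher in KO in untreated cells (log2 0.41) and with OVA (log2 0.45) too. Il1b, encoding interleukin-1β, stood at 123, 64.02 and 80.3 CPM in KO and 47.8, 54.9 and 39.8 CPM in WT, with the 3 KO libraries spread but all above WT (log2 fold change 0.91, SE 0.146, FDR 0.000139; log2 0.61, FDR 0.000864 without KO replicate 1). Its log2 fold change was 0.07 in untreated cells and 0.10 with OVA, neither called. Tested directly, the genotype difference of Il1b with Jurkat cells did not depart from that in either condition at the FDR used. Il6 stood at 7.15, 0.899 and 1.71 CPM in KO and 0.569, 0.429 and 0.413 CPM in WT (log2 fold change 2.78, SE 0.541, FDR 0.00121; log2 1.47, FDR 0.0094 without KO replicate 1) and Lif, of the same family, at 7.13, 4.94 and 5.62 CPM in KO and 4.18, 3.48 and 3.64 CPM in WT (log2 0.65, FDR 0.00232).

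The subunits of interleukin-12 differed. Il12a stood at 21.95, 19.6 and 19.4 CPM in KO and 17.5, 15.4 and 17.2 CPM in WT (log2 fold change 0.28, SE 0.0677, FDR 0.00724) and lost its call without KO replicate 1 or WT replicate 2. Il12b, chosen after its values were seen, stood at 94.8, 23.5 and 30.1 CPM in KO and 21.9, 32.2 and 19.5 CPM in WT. Only KO replicate 1 was outside the WT range of Il12b, and its call (FDR 0.0189) was lost without that library (log2 0.14, FDR 0.639). Ptgs2, the inducible cyclooxygenase and one of the 12 largest rises, stood at 23.3, 13.01 and 14.2 CPM in KO and 8.27, 9.15 and 8.75 CPM in WT, with all KO above all WT (log2 fold change 0.95, SE 0.164, FDR 0.000333; log2 0.64, FDR 0.00349 without KO replicate 1). Acod1, which makes itaconate and was chosen after its values were seen, stood at 38.3, 5.21 and 10.1 CPM in KO and 4.33, 5.69 and 3.59 CPM in WT with overlap (log2 1.99, FDR 0.00152; log2 0.76, FDR 0.0261 without KO replicate 1).

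Of 37 genes of maturation, co-stimulation and migration, 9 rose and 2 fell (median 0.11), against 5.58% and 3.67% of all genes. Without KO replicate 1 none rose and 4 fell (median 0.00). Cd40, the receptor through which T cells license dendritic cells, stood at 72.6, 18.3 and 23.97 CPM in KO and 18.5, 21.2 and 16.1 CPM in WT; KO replicate 1 lay far above WT, replicate 3 slightly above and replicate 2 within its range, and the call (FDR 0.0106) was lost without it (log2 0.19, FDR 0.352). Tnfsf9, encoding 4-1BB ligand, stood at 34.4, 27.8 and 32.1 CPM in KO and 24.2, 26.7 and 26.99 CPM in WT (log2 0.27, FDR 0.00956; log2 0.20, FDR 0.0766 without KO replicate 1). Ccl17, a CCR4 ligand of mature cells, was called with a log2 fold change of 1.90 (FDR 0.00578; log2 0.90, FDR 0.132 without KO replicate 1) and stood at 3.49, 0.816 and 0.912 CPM in KO and 0.3501, 0.858 and 0.225 CPM in WT. The members that fell were even across libraries. Cacnb3, a calcium channel subunit of mature dendritic cells, stood at 65.3, 58.04 and 60.3 CPM in KO and 82.5, 88.5 and 83.3 CPM in WT (log2 fold change -0.47, SE 0.0581, FDR 3.15e-06). Aldh1a2, which makes retinoic acid, stood at 5.92, 6.32 and 4.798 CPM in KO and 9.76, 10.3 and 9.07 CPM in WT (log2 fold change -0.77, SE 0.158, FDR 0.00204). Both lacked overlap and were lower in KO in untreated cells, with log2 fold changes of -0.53 and -0.83.

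Whether the genotype difference with Jurkat cells departed from that with OVA at the same time was tested as an interaction, and 11 genes passed (0.0743% of those tested), 6 higher and 5 lower. The 5 of smallest p among the higher are described first; Cxcl2, Tnf, Tnfaip3 and Nfkbiz are known early targets of NF-kB. Cxcl2, a neutrophil attractant, averaged 9.05 ± 1.16 CPM for KO and 20.1 ± 1.83 CPM for WT with OVA (SD, n = 3), and stood at 51.1, 35.4 and 42.8 against 35.8, 36.3 and 34.5 CPM with Jurkat cells. With OVA it was lower in KO (log2 -1.10, FDR 4.23e-06); with Jurkat cells the groups overlapped (log2 0.28, FDR 0.111). The difference between these was 1.37 on the log2 scale (SE 0.177, edgeR FDR 0.000276), and 1.23 without KO Jurkat replicate 1.

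Tnf, a main inflammatory cytokine, stood at 133, 98.5 and 131 CPM in KO and 97.4, 102 and 87.8 CPM in WT with Jurkat cells, where the groups overlapped and KO was called higher (log2 0.34, FDR 0.0123); that call was lost without 3 of the 6 libraries (FDR up to 0.0891). With OVA Tnf was lower in KO (log2 -0.47, FDR 0.00104), and the interaction was 0.81 (SE 0.128, FDR 0.00361). Tnfaip3, encoding the NF-kB inhibitor A20, stood at 139, 107 and 129 CPM in KO and 97.3, 103 and 97.2 CPM in WT with no overlap (log2 0.33, FDR 0.00123), against log2 -0.27 with OVA (FDR 0.00594) and an interaction of 0.60 (SE 0.0922, FDR 0.00319). Nfkbiz, a nuclear cofactor of NF-kB, stood at 108, 69.7 and 80.6 CPM in KO and 66.3, 67.99 and 67.7 CPM in WT (log2 0.35, FDR 0.0105; log2 0.16, FDR 0.139 without KO replicate 1), against log2 -0.39 with OVA and an interaction of 0.74 (SE 0.128, FDR 0.0118). Rasgef1b stood at 95.1, 74.3 and 83.4 CPM in KO and 71.3, 71.7 and 73.1 CPM in WT (log2 0.23, FDR 0.0321; log2 0.13, FDR 0.245 without KO replicate 1), against log2 -0.29 with OVA and an interaction of 0.52 (SE 0.0975, FDR 0.0297). In each of these genes the KO level with OVA was under WT and the KO mean with Jurkat cells was over WT.

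Tbcb, a tubulin folding cofactor, went the other way, at 42.6, 42.8 and 42.98 CPM in KO and 48.1, 47.1 and 46.4 CPM in WT with Jurkat cells (log2 -0.14) and a log2 fold change of 0.14 with OVA, for an interaction of -0.28 (SE 0.0527, FDR 0.0297). The count of 11 changed with the library left out. It was 100 without KO Jurkat replicate 2, 27 without KO Jurkat replicate 3, 5 without WT Jurkat replicate 1 or 2 and 4 without WT Jurkat replicate 3. In the OVA libraries, where KO replicate 3 held only 9.73 M counts, it was 19, 3 and 8 without KO replicates 1, 2 and 3. With WT OVA replicates 1, 2 and 3 left out in turn it was 3, 7 and 16. Without KO Jurkat replicate 1 it was 11 again, but 10 higher and 1 lower in place of 6 and 5. Rasgef1b (interaction 0.43, FDR 0.0518) and Tbcb (-0.27, FDR 0.058) then lost their call, and Cxcl2, Tnf, Tnfaip3 and Nfkbiz were still called. Against untreated cells the single gene was Nrn1, with KO at 1.48 and WT at 1.74 CPM with Jurkat cells and 0.487 and 0.0788 CPM in untreated cells, with an interaction of -2.82 on the log2 scale (edgeR FDR 0.0219). Nrn1 thus stood higher with Jurkat cells in both genotypes, and the part of reads of the human Jurkat cells in it was not tested. That count of 1 became 81 without KO Jurkat replicate 2, 5 without KO Jurkat replicate 1 or 3, and 0 without WT Jurkat replicate 2 or any untreated library but KO replicate 1, and 1098 genes had an unadjusted p under 0.05.

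**Figure D3:**
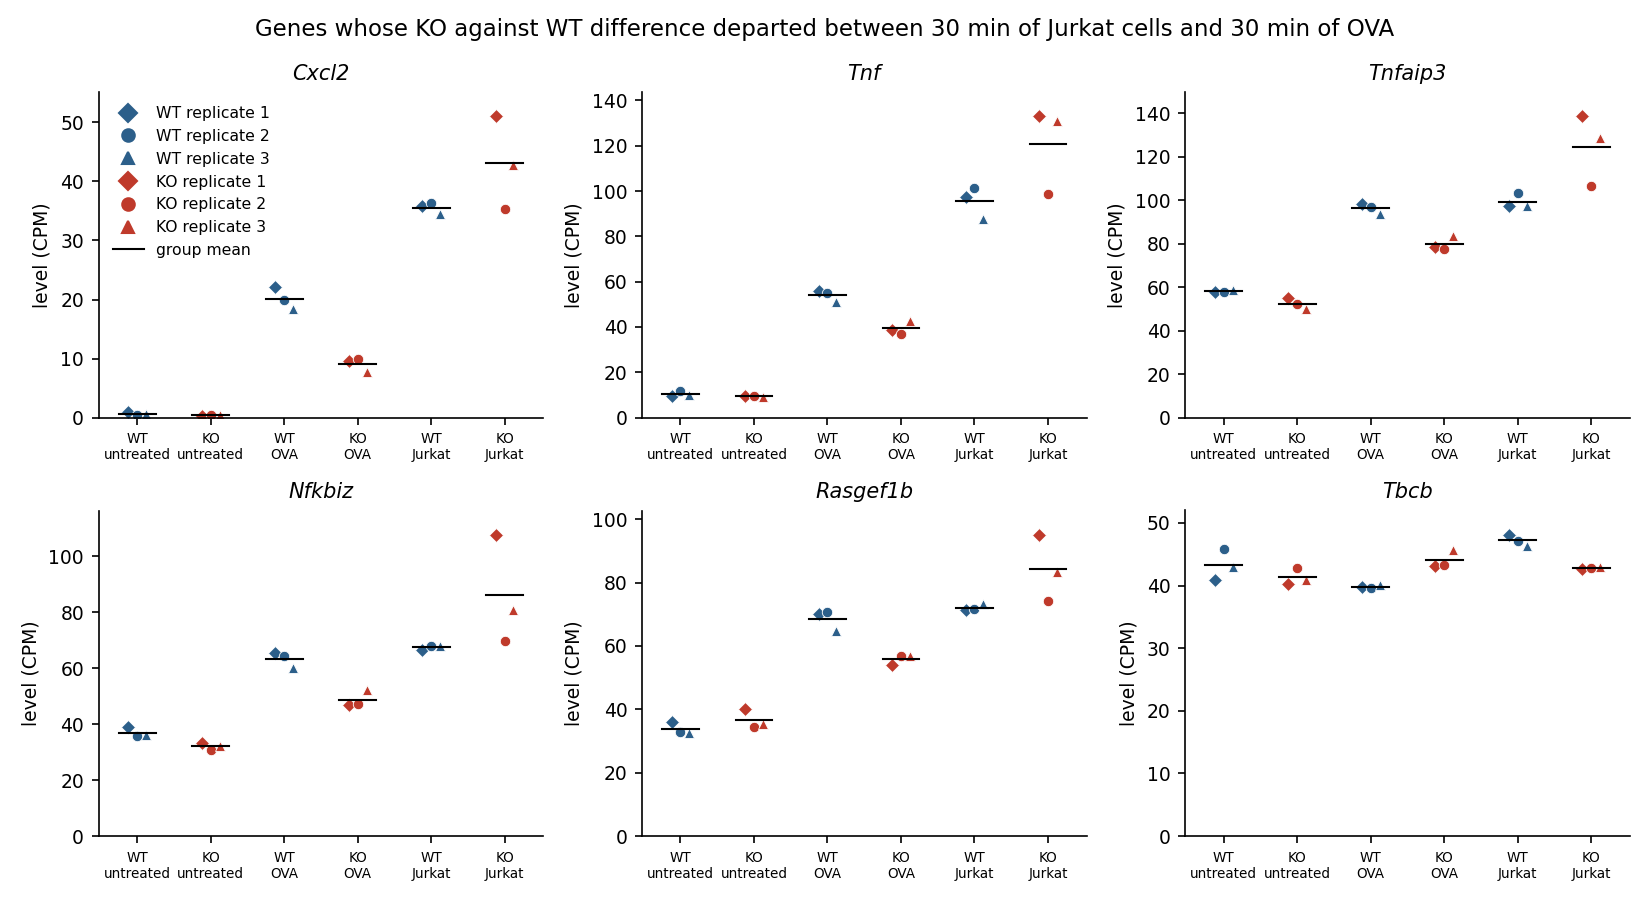
Levels in CPM of 6 genes in each library of untreated cells, 30 min OVA and 30 min Jurkat cells, with KO in red, WT in blue, a symbol for each replicate and a bar at each group mean. In Cxcl2, Tnf, Tnfaip3, Nfkbiz and Rasgef1b the KO mean is under WT with OVA and over WT with Jurkat cells; Tbcb shows the reverse.

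Several genes of the MHC class I pathway, its light and heavy chains among them, fell in KO. Class I molecules display peptides of internal proteins, and in cross-presentation of engulfed ones, to CD8 T cells. Of 35 genes of this pathway 10 fell and 2 rose (median -0.06), against 3.67% and 5.58% of all genes, and 11 fell and 1 rose without KO replicate 1. The summed level of the pathway overlapped, at 21618, 21337 and 21432 CPM in KO and 21535, 21853 and 21758 CPM in WT (exact permutation p = 0.2, two-sided). B2m, the shared light chain, stood at 1171, 1104 and 1093 CPM in KO and 1675, 1513 and 1461 CPM in WT, without overlap (log2 fold change -0.46, SE 0.051, FDR 4.56e-07). The heavy chains H2-K1, at 948, 899.6 and 905 CPM in KO and 1230.0, 1229.6 and 1197 CPM in WT (log2 fold change -0.41, SE 0.0369, FDR 1.46e-08), and H2-D1, at 389, 383 and 382 CPM in KO and 477, 473 and 466 CPM in WT (log2 -0.29, FDR 1.24e-05), kept the same order. The nonclassical genes H2-Q4 (62.6, 56.1 and 57.2 against 88.5, 92.6 and 92.9 CPM; log2 fold change -0.64, SE 0.0508, FDR 1.22e-09) and H2-M3 (log2 -0.24, FDR 0.000171) were lower too. H2-Q5, outside the list and among the 12 largest falls, stood at 4.59, 4.27 and 3.99 CPM in KO and 7.35, 7.65 and 7.46 CPM in WT (log2 -0.80, FDR 9.4e-08). Heavy chain genes have close copies, so their counts are uncertain.

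The genes that rose were Rab34 and Wdfy4, both tied to cross-presentation and named after their values were seen. The differences were of similar size in untreated cells, at log2 -0.48 for B2m, -0.47 for H2-K1 and -0.71 for H2-Q4. Tap1, a subunit of the peptide transporter and chosen after its values were seen, stood at 368, 338 and 333 CPM in KO and 382, 403 and 394 CPM in WT (log2 -0.18, FDR 0.00913), and the immunoproteasome subunit Psmb9, likewise chosen, at 169, 169 and 164 CPM in KO and 195, 194 and 187 CPM in WT (log2 -0.20, FDR 0.00396). The call of Tap1 was lost without 2 of the 6 libraries. Genes of the class II pathway, which serves CD4 T cells, moved little: of 18, 3 rose and 1 fell, against 5.58% and 3.67% of all genes. H2-DMb2, a subunit of the peptide loading factor, stood at 87.5, 91.8 and 85.2 CPM in KO and 74.7, 77.8 and 75.2 CPM in WT (log2 fold change 0.22, SE 0.0432, FDR 0.00154). Ciita, the master activator of class II genes, stood at 590.3, 614 and 601 CPM in KO and 525, 548 and 548 CPM in WT (log2 0.16, FDR 0.0174), a call lost without 3 of the 6 libraries (FDR up to 0.0876). H2-Ob, a subunit of a loading inhibitor, rose by 0.11 (FDR 0.0285), a call lost without 4 of the 6 libraries (FDR up to 0.139). Ctsl, a lysosomal protease, was the member that fell, at 355, 388 and 398 CPM in KO and 501, 448 and 507 CPM in WT (log2 -0.35, FDR 0.00149).

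Genes that recognise or bridge to apoptotic cells were looked at because the treatment was one of dying cells. Of 46 tested, 5 rose and 3 fell, against 5.58% and 3.67% of all genes. Mfge8, which links phosphatidylserine to integrins, stood at 94.8, 103 and 121 CPM in KO and 75.3, 66.2 and 83.6 CPM in WT, without overlap (log2 fold change 0.50, SE 0.0934, FDR 0.000789). It was higher in KO in untreated cells (log2 0.79) and with OVA (log2 0.72). Thbs1, encoding thrombospondin-1, stood at 226, 253 and 245 CPM in KO and 174, 150.3 and 189.8 CPM in WT (log2 fold change 0.50, SE 0.0996, FDR 0.0016). Both are also made by stromal cells, whose markers were higher in KO as given below, and the part of those cells in the values was not tested. Havcr2, encoding the phosphatidylserine receptor TIM-3, rose by 0.21 on the log2 scale (102, 101 and 105 CPM in KO and 90.8, 87.6 and 88.2 CPM in WT; FDR 0.000863) and the integrin gene Itgb3 by 0.17 (FDR 0.00732). Clec9a, the receptor with which type 1 cells sense dead cells, stood at 133, 124 and 123 CPM in KO and 145, 151 and 145 CPM in WT (log2 fold change -0.21, SE 0.0526, FDR 0.00914), a call lost without 2 of the 6 libraries (FDR up to 0.06).

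C1qa, a complement component that coats dying cells, stood at 40.5, 44.4 and 51.8 CPM in KO and 60.2, 54.5 and 63.2 CPM in WT (log2 -0.38, FDR 0.0362), and its call was lost without 4 of the 6 libraries (FDR up to 0.147). The TAM receptors Mertk, at 15.5, 16.8 and 20.5 CPM in KO and 18.5, 20.03 and 20.6 CPM in WT, and Axl, at 144, 125 and 139 CPM in KO and 145, 126 and 148 CPM in WT, overlapped between genotypes (FDR 0.48 and 0.852). Both were chosen after their values were seen, as were the remaining called members, the engulfment genes Elmo1, which rose, and Elmo2, which fell.

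Genes of the machinery in which Rubicon acts were followed as well. Of 44 genes of the class III kinase, autophagy and LC3 conjugation, 1 rose and 2 fell (median 0.01), against 5.58% and 3.67% of all genes. So small a count cannot be set apart from the 9.25% of all genes called. Without KO replicate 1 none was called. Partners chosen after their values were seen were Pik3c3, encoding VPS34, at 59.9, 61.01 and 55.5 CPM in KO and 57.4, 55.5 and 58.5 CPM in WT, Becn1 at 106, 109 and 106 CPM in KO and 112, 112 and 111 CPM in WT and Uvrag at 206, 211 and 205 CPM in KO and 215, 221 and 217 CPM in WT. None of the 3 was called (FDR 0.682, 0.261 and 0.266). Atg16l1, which directs LC3 to membranes, stood at 54.4, 55.6 and 57.03 CPM in KO and 55.1, 54.9 and 56.4 CPM in WT (FDR 0.962), and Rubcnl, the paralog known as Pacer, at 98.6, 94.01 and 95.04 CPM in KO and 95.4, 97.9 and 96.6 CPM in WT (FDR 0.916), also chosen afterwards. Their KO and WT ranges overlapped, except in Becn1 and Uvrag, where KO lay slightly under WT.

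The 3 calls were small. Optn, an autophagy receptor, stood at 8.56, 4.52 and 6.1000 CPM in KO and 4.79, 3.997 and 4.301 CPM in WT with overlap (log2 0.55, FDR 0.0128), lost without 2 of the 6 libraries (FDR up to 0.168). Atg4d, an LC3 protease, had a log2 fold change of -0.17 (FDR 0.0255) and Tfeb, the regulator of lysosomal genes, of -0.14 (FDR 0.0485). Both calls were lost without 5 of the 6 libraries. Of 8 genes of NADPH oxidase 2, Rac1, the GTPase that activates it, was called, at 353, 372 and 370.2 CPM in KO and 343, 332 and 329 CPM in WT (log2 0.13, FDR 0.0184), and lost without 4 of the 6 libraries (FDR up to 0.0843). The membrane subunits Cybb, at 776, 686 and 698 CPM in KO and 780.2, 751 and 735 CPM in WT, and Cyba, at 299, 317 and 320.5 CPM in KO and 318, 324 and 319 CPM in WT, were not called (FDR 0.581 and 0.697). Of 47 genes of lysosomes and their proton pump 2 rose and 2 fell, against 5.58% and 3.67% of all genes. Mcoln2, a lysosomal calcium channel, led at 15.1, 12.9 and 13.9 CPM in KO and 11.6, 10.8 and 11.1 CPM in WT (log2 0.32, FDR 0.00115). The other members called were Ppt1, a thioesterase, at log2 0.12, the protease gene Ctsh at -0.15 and Atp6v1g1, a subunit of the proton pump, at -0.14. The number of libraries without which the call was lost was 6 (Ppt1), 3 (Ctsh) and 4 (Atp6v1g1).

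Genes of lipid synthesis were higher in KO. Of 34 genes of cholesterol and fatty acid metabolism 20 rose and 1 fell (median 0.19), against 5.58% and 3.67% of all genes, and 16 rose and 1 fell without KO replicate 1. The summed level of the list was 5001, 5011 and 5020.1 CPM in KO and 4294, 4358 and 4492 CPM in WT, without overlap (two-sided exact permutation p = 0.1, which is the lowest possible for 3 against 3). Scd2, a desaturase that makes monounsaturated fatty acids, stood at 622, 619 and 623 CPM in KO and 422, 399.8 and 437 CPM in WT (log2 fold change 0.57, SE 0.0544, FDR 5.51e-08). Its relative Scd1 was scarcer, at 8.75, 9.73 and 9.16 CPM in KO and 4.64, 3.52 and 4.81 CPM in WT (log2 fold change 1.09, SE 0.112, FDR 1.87e-07), and among the 12 largest rises. In both genes the KO libraries lay close together and clear of WT.

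Acaca and Fasn carry out the first steps of fatty acid synthesis. Acaca stood at 55.8, 57.5 and 57.7 CPM in KO and 46.3, 47.8 and 49.6 CPM in WT (log2 0.25, FDR 8.24e-05) and Fasn at 415, 436 and 438 CPM in KO and 327, 369.6 and 384 CPM in WT (log2 0.25, FDR 0.00253). Fads1, which desaturates polyunsaturated fatty acids, rose by 0.20 (FDR 0.00144). In the sterol branch, Sqle, an enzyme of cholesterol synthesis chosen after its values were seen, stood at 133, 131 and 129.7 CPM in KO and 113, 112 and 114 CPM in WT without overlap (log2 0.21, FDR 0.00755). In untreated cells 24 of the list were higher in KO (median 0.21) and with OVA 10 (median 0.07). Part of a sterol regulatory element, TCAC and CCAC with any 1 base between them on either strand, stood in 1 of the 22 promoters of the list that had a window (4.55%) and in 1.24% of all windows.

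**Figure D4:**
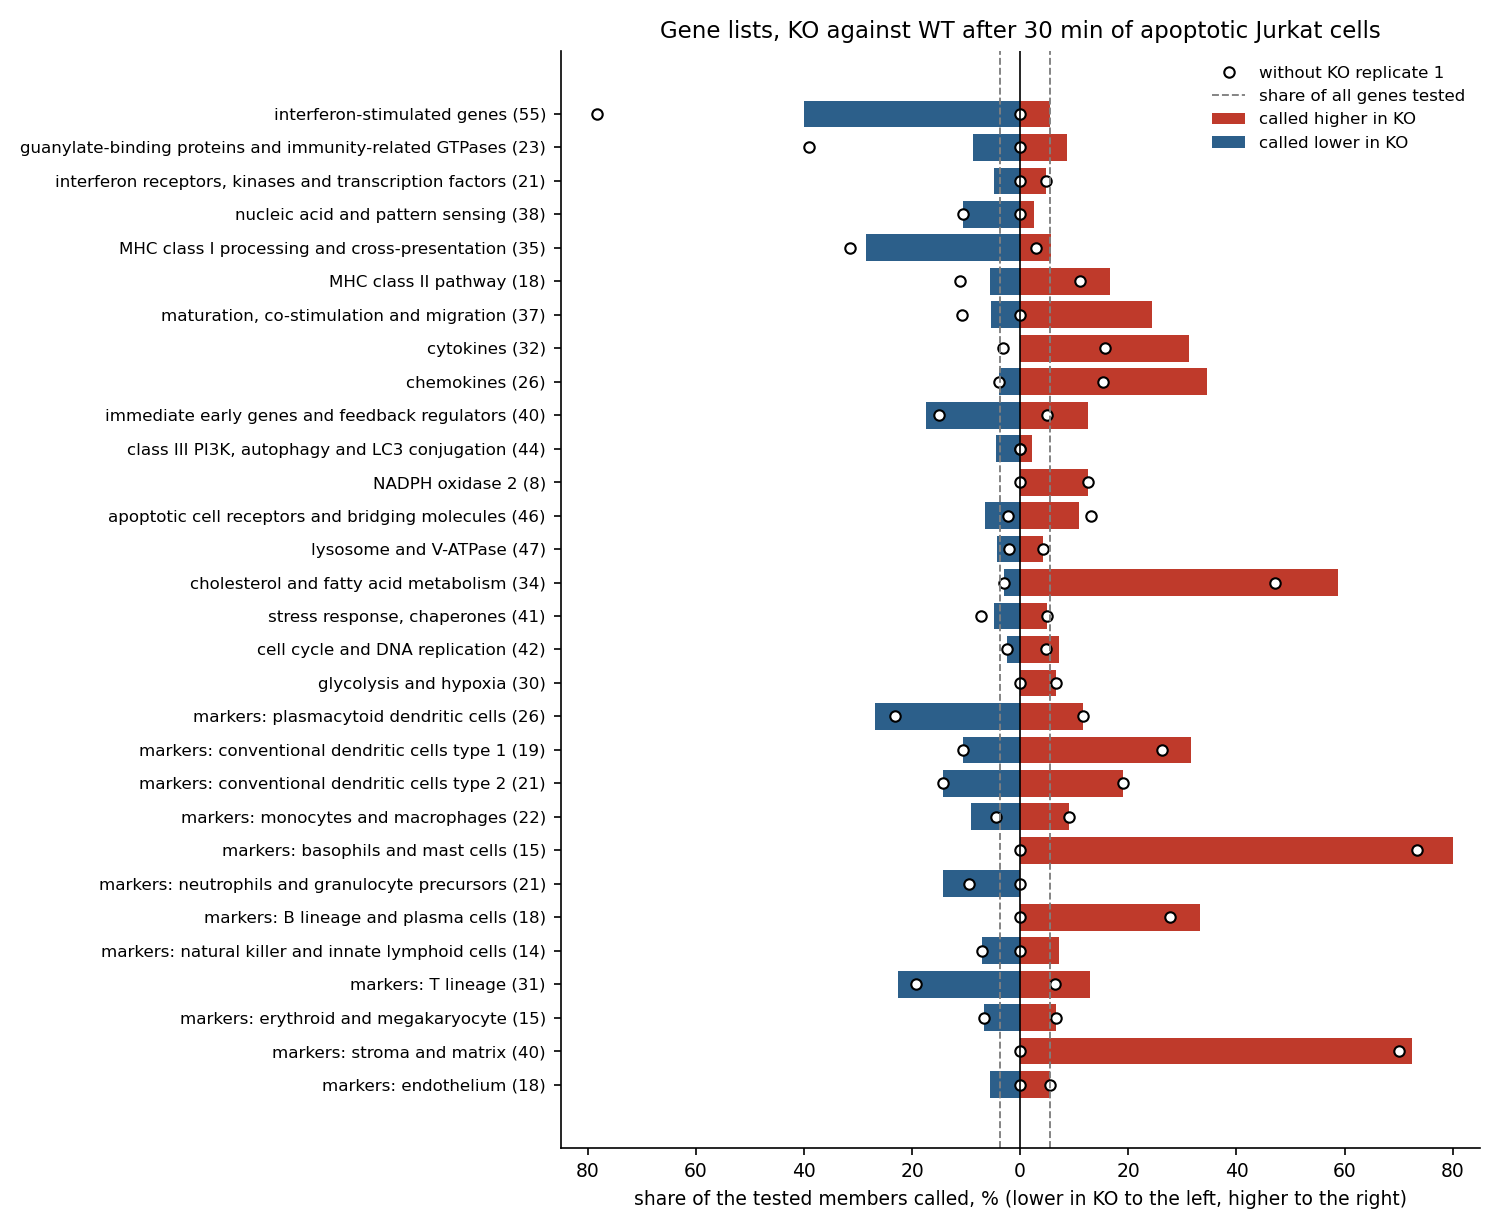
Share of the tested members of each gene list called higher (red, right) or lower (blue, left) in KO after 30 min of Jurkat cells, in %, with the number tested in brackets; open circles give the counts without KO replicate 1 as a share of the same number, and dashed lines the 5.58% and 3.67% of all genes. Interferon-stimulated genes move from 22 to 43 lower without KO replicate 1, while the lipid, basophil and stromal lists stay on the right.

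Of 40 immediate early genes and feedback regulators 5 rose and 7 fell, against 5.58% and 3.67% of all genes, and 2 rose and 6 fell without KO replicate 1. Klf4, a regulator of type 2 cells and macrophages, stood at 108, 116 and 109.8 CPM in KO and 133, 134 and 135 CPM in WT (log2 fold change -0.27, SE 0.0438, FDR 0.000189), Ier5 at 302, 287 and 290.5 CPM in KO and 337, 344 and 344 CPM in WT (log2 -0.22, FDR 0.000477) and the phosphatase gene Dusp5 at 39.9, 30.5 and 31.95 CPM in KO and 44.4, 42.7 and 42.3 CPM in WT (log2 -0.34, FDR 0.00542). None of the 3 overlapped between genotypes. Of 41 stress genes 2 rose and 2 fell, against the same 5.58% and 3.67%. Asns, encoding asparagine synthetase, stood at 11.2, 11.02 and 10.7 CPM in KO and 7.702, 8.02 and 7.32 CPM in WT (log2 fold change 0.52, SE 0.07, FDR 1.38e-05). The others called were Bag3 (log2 0.25), Herpud1 (-0.17) and Sesn2 (-0.23), each lost without 1 or 2 of the 6 libraries. Of 38 sensors of nucleic acids and other patterns 1 rose and 4 fell, against the same 5.58% and 3.67%. Among these, Trex1, the nuclease that limits cytosolic DNA sensing, stood at 122, 111 and 110.1 CPM in KO and 149, 147 and 144 CPM in WT (log2 fold change -0.36, SE 0.055, FDR 7.26e-05), and Unc93b1, which carries Toll-like receptors to endosomes, at 836, 865 and 883 CPM in KO and 944, 975 and 971 CPM in WT (log2 -0.16, FDR 0.00265). Mb21d1, encoding the DNA sensor cGAS, fell by 0.22 (FDR 0.00892), and the calls of Casp1 (log2 -0.16, FDR 0.0485) and Nod2 (log2 0.23, FDR 0.0482) lay at the threshold. The calls were lost without 3 (Mb21d1), 4 (Casp1) and 4 (Nod2) of the 6 libraries.

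Of 21 interferon receptors, kinases and transcription factors 1 rose and 1 fell, against 5.58% and 3.67% of all genes. Socs3, a brake on cytokine receptors, rose (66.2, 48.3 and 52.97 CPM in KO and 39.1, 38.5 and 40.7 CPM in WT; log2 fold change 0.50, SE 0.0819, FDR 0.000171), and the receptor gene Ifnar2 fell by 0.11 on the log2 scale, a call lost without any 1 of the 6 libraries (FDR up to 0.126). Of 23 guanylate-binding proteins and immunity-related GTPases, which attack vacuoles of pathogens, 2 rose and 2 fell, against 5.58% and 3.67% of all genes. Without KO replicate 1, however, none rose and 9 fell. Gbp5 stood at 37.2, 8.26 and 11.7 CPM in KO and 9.58, 10.7 and 8.47 CPM in WT (log2 0.99, FDR 0.0286; log2 0.06, FDR 0.858 without KO replicate 1) and Gbp4 at 29.97, 24.5 and 21.4 CPM in KO and 31.1, 32.9 and 30.5 CPM in WT (log2 -0.32, FDR 0.0403; log2 -0.45, FDR 0.0031 without KO replicate 1). Gbp4 lost its call without 5 of the 6 libraries (FDR up to 0.268). The remaining calls were Tgtp1 (log2 1.62, FDR 0.0471; log2 0.07, FDR 0.946 without KO replicate 1) and Gbp9 (log2 -0.29, FDR 0.0442), lost without 4 (Tgtp1) and 5 (Gbp9) of the 6 libraries. Counts of these families are uncertain because of close copies. Of 42 cell cycle genes 3 rose, Ccnd2 (log2 0.39), Mki67 (0.14) and Tpx2 (0.14), and Ccnd1 fell (-0.22), against 5.58% and 3.67% of all genes. Ccnd2 stood at log2 0.19 (FDR 0.0505) without KO replicate 1, and Mki67 and Tpx2 lost their calls without 5 and 4 of the 6 libraries. Of 30 genes of glycolysis and hypoxia Aldoc (0.23) and P4ha2 (0.43) rose and none fell, with calls lost without 1 (Aldoc) and 4 (P4ha2) of the 6 libraries.

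Markers of cell types that the cultures could hold were followed beside these groups. Of 26 markers of plasmacytoid dendritic cells 7 fell and 3 rose, against 3.67% and 5.58% of all genes. Their summed level, given above, did not overlap between genotypes (exact permutation p = 0.1, two-sided). Siglech, the defining surface receptor, stood at 701, 674 and 671 CPM in KO and 805, 788 and 786 CPM in WT (log2 fold change -0.22, SE 0.057, FDR 0.0149), and its call was lost without 3 of the 6 libraries (FDR up to 0.0624). Bst2, an interferon-inducible tetherin also used as a plasmacytoid marker, stood at 391, 372 and 383 CPM in KO and 493, 509 and 466 CPM in WT (log2 fold change -0.36, SE 0.0477, FDR 1.04e-05), and Lag3 had a log2 fold change of -0.24. Against these, Dntt, a DNA polymerase of lymphoid precursors, was higher in KO, at 67.5, 63.7 and 65.04 CPM in KO and 43.9, 41.4 and 37.7 CPM in WT, without overlap (log2 fold change 0.67, SE 0.0548, FDR 1.8e-09), as was Cox6a2 (log2 0.27, FDR 0.00259). The transcription factor genes Irf8, at 2055, 2100.1 and 2087 CPM in KO and 2175, 2250.0 and 2236 CPM in WT, and Runx2 (log2 -0.19, FDR 0.0562) were not called.

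Of 19 markers of type 1 conventional cells 6 rose and 2 fell, against 5.58% and 3.67% of all genes. Itgae, encoding CD103, stood at 44.8, 39.7 and 36.4 CPM in KO and 24.1, 22.3 and 24.3 CPM in WT (log2 fold change 0.77, SE 0.0884, FDR 9.35e-07), and was higher in KO in untreated cells too (log2 1.10). Gcsam rose by 0.37 (FDR 0.000105), and Wdfy4 and Naaa, abundant members, had log2 fold changes of 0.18 (FDR 0.0264) and 0.05 (FDR 0.589), and the call of Wdfy4 was lost without 4 of the 6 libraries (FDR up to 0.171). Clec9a was lower, as given above. Of 21 markers of type 2 cells 4 rose and 3 fell, and of 22 of monocytes and macrophages 2 rose and 2 fell, against the same 5.58% and 3.67%. Cx3cr1, a chemokine receptor of type 2 cells, had a log2 fold change of -0.19 (FDR 0.00755), Lyz2, encoding lysozyme, one of 0.07 (FDR 0.543), and Vcan, a matrix proteoglycan of monocytes, one of 0.72 (FDR 0.00415). In both lists the summed levels of the genotypes overlapped.

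Basophil and mast cell genes were higher in KO. Of 22 markers 15 were tested, and 12 of these rose and none fell (median 0.97), against 5.58% and 3.67% of all genes. Without KO replicate 1, 11 rose. Mcpt8, a protease that defines basophils, stood at 16.5, 15.3 and 14.7 CPM in KO and 4.92, 3.66 and 3.57 CPM in WT, a 3.83-fold difference without overlap (log2 fold change 1.94, SE 0.172, FDR 1.07e-08). Prss34, another basophil protease, stood at 32.9, 33.7 and 29.8 CPM in KO and 16.1, 13.3 and 11.9 CPM in WT (log2 fold change 1.23, SE 0.153, FDR 3.51e-06). Gata2, the transcription factor of the lineage, stood at 6.07, 5.46 and 5.49 CPM in KO and 2.98, 2.12 and 2.85 CPM in WT (log2 1.09, FDR 4.26e-06), Cpa3 at 11.2, 11.6 and 9.38 CPM in KO and 6.56, 3.79 and 3.66 CPM in WT (log2 1.204, FDR 0.000279), and Fcer1a, encoding the binding chain of the IgE receptor, at 1.52, 1.38 and 1.06 CPM in KO and 0.416, 0.384 and 0.338 CPM in WT (log2 1.80, FDR 0.000172). In untreated cells 10 of the list were higher in KO, and the log2 fold change of Mcpt8 was 2.26 there.

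The mast cell genes Tpsb2, Mcpt4 and Cma1 had no count in any of the 6 libraries, and Tpsab1 had 1. The summed level of the basophil and mast cell markers was 484, 464 and 465 CPM in KO and 392, 395 and 389 CPM in WT. Most of it came from Il6ra and Kit, which other cells share. Kit stood at 137, 139 and 138 CPM in KO and 119, 129 and 124 CPM in WT and Il6ra at 142, 148 and 146 CPM in KO and 154, 156 and 155 CPM in WT, and the list also holds Csf1.

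Stromal and matrix genes were higher in KO. Of 40 tested, 29 rose and none fell (median 0.65), against 5.58% and 3.67% of all genes, and 28 rose without KO replicate 1. The summed level was 3310.0, 3487 and 3594 CPM in KO and 2452, 2132 and 2556 CPM in WT, without overlap (exact permutation p = 0.1, two-sided), and no marker was at 0. Fn1, encoding fibronectin, which macrophages also make, stood at 501, 534 and 538 CPM in KO and 319, 268 and 343 CPM in WT (log2 fold change 0.76, SE 0.0846, FDR 5.97e-07). Col1a1, a chain of type I collagen, stood at 227, 239 and 259 CPM in KO and 153, 135 and 165 CPM in WT (log2 fold change 0.68, SE 0.0872, FDR 6e-06), and the proteoglycan gene Bgn at 168, 176 and 184 CPM in KO and 113, 100.3 and 122 CPM in WT (log2 0.65, FDR 2.12e-05). Igfbp7 and Timp1 rose by 0.74 and 0.70. In each of these genes all KO libraries were above all WT libraries. The same list had 30 rises in untreated cells and 31 with OVA.

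B lineage and plasma cell genes rose in 6 of 18 tested, and none fell, against 5.58% and 3.67% of all genes. Jchain, the joining chain of polymeric antibodies, which plasmacytoid cells also express, stood at 13.02, 12.1 and 12.8 CPM in KO and 4.55, 4.18 and 4.26 CPM in WT, a 2.92-fold difference (log2 fold change 1.54, SE 0.128, FDR 2.55e-09). Blk, a B-cell kinase, stood at 14.1, 14.6 and 15.02 CPM in KO and 11.3, 11.6 and 10.7 CPM in WT (log2 0.38, FDR 3.41e-05). The B-cell factors Pax5 (log2 1.04, FDR 0.0106) and Ebf1 (log2 0.60, FDR 0.00816) and the receptor gene Cd22 (log2 0.24, FDR 0.014) were higher as well, each call lost without 2 of the 6 libraries. The summed level of these markers was 492, 493 and 494 CPM in KO and 481, 475 and 471 CPM in WT. Of 21 neutrophil markers 3 fell and none rose, against 3.67% and 5.58% of all genes. Prtn3 stood at 6.15, 6.34 and 6.32 CPM in KO and 8.23, 8.17 and 8.34 CPM in WT (log2 -0.40, FDR 0.00782). Mmp8 and Lcn2 stood at log2 -0.32 and -0.32 (calls lost without 2 and 5 of the 6 libraries). The summed level of the list was 237, 244 and 249 CPM in KO and 286, 258 and 255 CPM in WT. The natural killer (14 tested), erythroid (15) and endothelial (18) lists gave 1 rise and 1 fall each, against the same 5.58% and 3.67%. The globin genes Hba-a1, Hba-a2, Hbb-bs and Hbb-bt had no count in the 6 libraries.

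**Figure D5:**
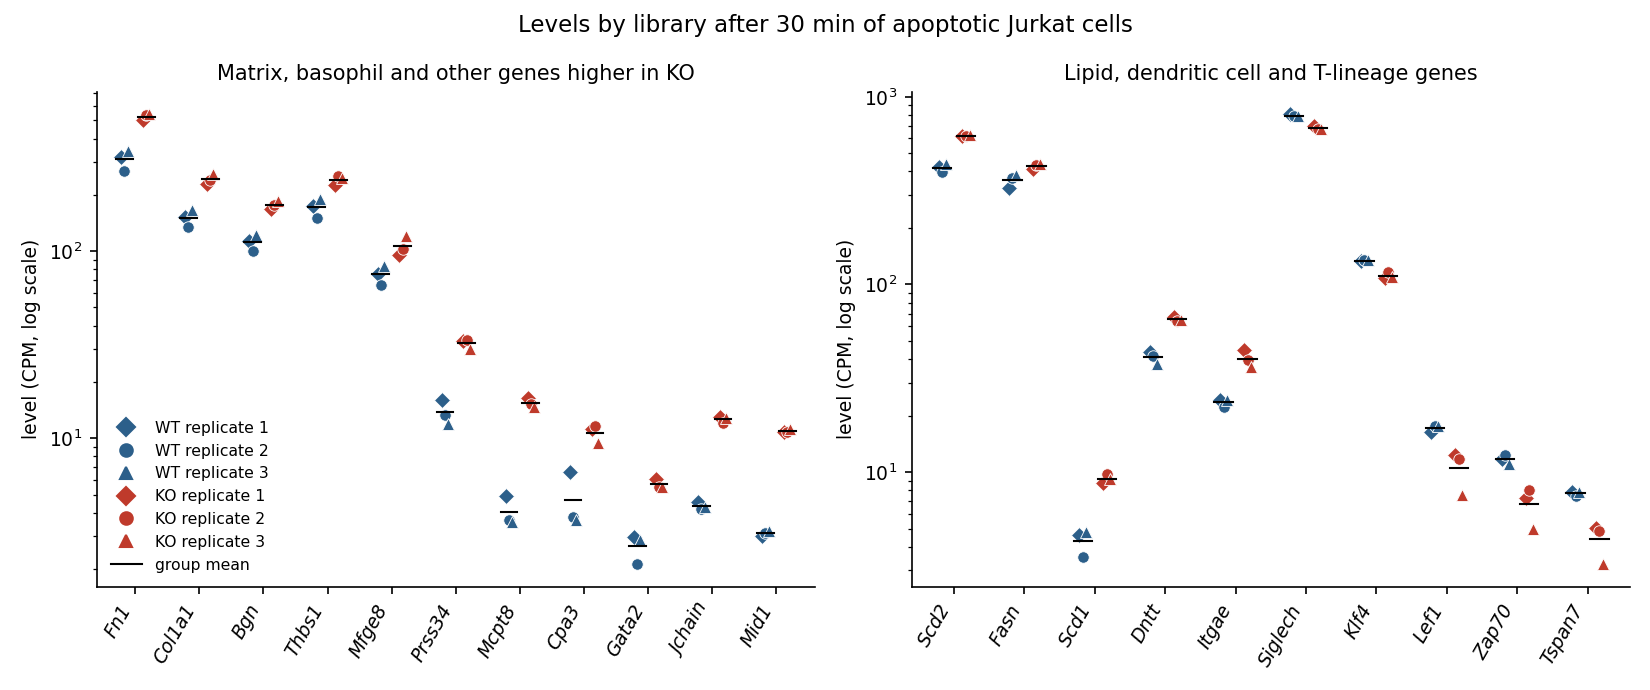
Levels of 21 genes in each library after 30 min of Jurkat cells, in CPM on a log axis, with KO in red, WT in blue, a symbol for each replicate and a bar at each group mean. Matrix genes such as Fn1, basophil genes such as Mcpt8 and the lipid genes Scd1 and Scd2 are higher in every KO library, and the T-lineage genes Lef1 and Zap70, with Tspan7, are lower in every KO library.

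Reads of the human Jurkat cells may align to mouse genes, and T-lineage genes were followed as a measure of them. The 13 list members under 1 CPM in untreated cells summed to 29.2, 29.2 and 19.1 CPM in the KO and 41.03, 41.9 and 39.9 CPM in the WT libraries given Jurkat cells, so that KO held 0.63 times the WT sum, without overlap (exact permutation p = 0.1, two-sided). With OVA the sums were 3.75, 3.52 and 4.34 CPM in KO and 2.93, 2.63 and 2.83 CPM in WT, and KO replicate 3 was the lowest of the libraries with Jurkat cells. Lef1 stood at 12.3, 11.8 and 7.51 CPM in KO and 16.4, 17.6 and 17.6 CPM in WT (log2 fold change -0.71, SE 0.13, FDR 0.000585) and the T-cell kinase gene Zap70 at 7.302, 8.05 and 4.97 CPM in KO and 11.8, 12.3 and 11.1 CPM in WT (log2 fold change -0.79, SE 0.136, FDR 0.000325). Tspan7, one of the 12 largest falls, took the same course at 5.03, 4.87 and 3.23 CPM in KO and 7.88, 7.47 and 7.83 CPM in WT (log2 -0.82, FDR 0.00283). These 3 were 6.79, 4.90 and 4.75 higher on the log2 scale in WT with Jurkat cells than with OVA, and none was called between genotypes in untreated cells. Nor did any of them pass the direct test of the genotype difference against untreated cells or OVA.

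Over all 31 T-lineage genes tested 4 rose and 7 fell, against 5.58% and 3.67% of all genes. Their sum overlapped between genotypes (KO 0.986 times WT, exact permutation p = 0.4, two-sided). Most of that sum came from Ccr9 and Cd7, which plasmacytoid cells express. Rag1, a recombinase gene of lymphoid precursors, was higher in KO at 19.8, 18.7 and 17.9 CPM in KO and 13.1, 13.5 and 11.8 CPM in WT (log2 fold change 0.56, SE 0.0631, FDR 7.53e-07). For genes that T cells express, fewer Jurkat reads and less mouse RNA in KO cannot be told apart in these counts.

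Other genes among the 12 largest rises and falls, taken from called genes of at least 5 CPM in a group mean and without overlap, belong to no list. Mid1, which encodes a ubiquitin ligase bound to microtubules, stood at 10.8, 10.8 and 11.2 CPM in KO and 3.02, 3.12 and 3.17 CPM in WT, a 3.52-fold difference (log2 fold change 1.82, SE 0.0767, FDR 7.84e-16), with log2 fold changes of 1.72 in untreated cells and 2.14 with OVA. Il18r1, a chain of the interleukin-18 receptor, stood at 7.82, 6.57 and 7.08 CPM in KO and 3.87, 3.97 and 3.34 CPM in WT (log2 0.94, FDR 2.61e-07), and Serpina3g, a serine protease inhibitor, at 29.3, 10.2 and 11.3 CPM in KO and 7.002, 6.55 and 6.33 CPM in WT, where KO replicate 1 led (log2 1.35, FDR 0.000318; 0.70 without it). Among the falls, Apod, a lipocalin, stood at 11.3, 9.16 and 11.01 CPM in KO and 23.5, 22.7 and 18.2 CPM in WT (log2 -1.03, FDR 1.16e-06). Siglec1, the macrophage receptor CD169, which interferon induces, stood at 9.23, 10.2 and 13.4 CPM in KO and 20.5, 19.5 and 23.3 CPM in WT (log2 -0.95, FDR 8.67e-05), with KO replicate 1 the lowest library. All of these separated the genotypes without overlap.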

How the data were processed

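RNA sequencing counts per gene were analysed in 30 mouse libraries, of which 6 (3 KO, 3 WT) form the comparison. The counts were deposited by the authors as whole numbers without normalization. STAR 2.5, Subread, featureCounts 1.5.0-p1 and DESeq2 and the build mm10 are named in the submitters' processing notes, and the handling of human reads, strand and reads with several matches is not given in the sources used here. Human reads that align to mouse genes would be counted as mouse expression.

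All 30 libraries were fitted in edgeR 4.0.16 (R 4.3.3) with TMM scaling, filterByExpr by group, 1 mean per group of genotype, treatment and time, and the quasi-likelihood test of KO minus WT at 30 min Jurkat, with Benjamini-Hochberg adjustment at 0.05 over the 14808 genes tested of 25611 in the table. Tested genes held 99.99% of the counts. Interactions with genotype were contrasts of the same fit. CPM used TMM-scaled library sizes, and the 6 libraries had TMM factors of 1.04 to 1.05. The 30 libraries held 9.73 to 51.6 M counts, and the lowest was KO replicate 3 of 30 min OVA, which enters the interaction with OVA. No replicate pair agreed within sampling noise (chi-square per degree of freedom of 3.55 to 16.6 among the 6). On simulated counts for this comparison, 97% of 67 genes changed 1.5-fold and 100% of 67 changed 2-fold were recovered, and 11 unchanged genes of 14587 tested were called. Changes were placed only in genes with a mean of at least 5 CPM, and each gene was drawn independently. The simulation thus held no shift of a whole library such as KO replicate 1, and its shares need not hold for the real libraries.

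The members and gene lists were chosen with earlier results of these data known. Genes named are the 12 largest rises and falls that were called, reached 5 CPM in a group mean and did not overlap, up to 5 called members of each list by p (the 2 of smallest p where fewer than 2 were called), the 6 leading interactions, and the 3 most abundant markers of each cell type. Genes outside this rule are said to be chosen after their values were seen. Some members counted in the lists are not reported here by name. Summed levels were compared with an exact permutation test over libraries, two-sided. Alternatives were other scaling, filters, DESeq2 1.42.0, a replicate block, the groups alone, and each library left out, and, added after seeing the data, the lists without each library and the fit without genes raised at 4 h.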

Additional observations from a re-analysis of the deposited data

Results flagged for a closer look

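For 12 genes the difference between KO and WT with 30 min of Jurkat cells departed from that in another condition, by edgeR's test of the interaction with FDR under 0.05 over all genes. Against 30 min of OVA the change of the log2 fold change was 1.37 for Cxcl2, 0.81 for Tnf, 0.74 for Nfkbiz, 0.60 for Tnfaip3, 0.53 for Cflar, an inhibitor of death receptor signalling, and 0.52 for Rasgef1b. It was -1.11 for Tox, a transcription factor of lymphocytes, -1.08 for the linker histone gene H1fx, -0.42 for Ubtd1, -0.32 for Ubald1 and -0.28 for Tbcb. Against untreated cells it was -2.82 for Nrn1, which encodes a protein of neurite growth.

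Cflar levels were 101 ± 18.0 CPM for KO and 76.3 ± 1.71 CPM for WT with Jurkat cells, and at 107 ± 2.97 and 117 ± 3.59 CPM with OVA (SD, n = 3 libraries each). Tox levels were 3.80 ± 0.488 CPM for KO and 4.57 ± 0.323 CPM for WT with Jurkat cells, and at 2.04 ± 0.107 and 1.15 ± 0.215 CPM with OVA. H1fx, too, was higher in KO with OVA (1.53 against 0.889 CPM) and not with Jurkat cells (3.05 against 3.69 CPM). The cause of these differences was not tested.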

How the results depend on the processing

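Against 1370 genes called between KO and WT with 30 min of Jurkat cells, 891 were called when the 6 libraries were fitted alone, and 708 to 1158 with each library left out. DESeq2 called 1428, and the other scalings and filters 1199 to 1368. The split of 826 higher and 544 lower moved with the scaling. It was 753 and 615 with DESeq2 size factors, 773 and 655 by DESeq2, and 877 and 448 with total counts. The count was 964 without genes that Jurkat cells raised above OVA and 1185 without genes raised 4-fold at 4 h. Both fits drop called genes before testing, 99 higher and 86 lower in KO for the 4 h set. Lower counts there follow at least in part from the removal. Same-numbered KO and WT libraries deviated together with correlations of 0.105, -0.021 and 0.204, so the numbers were not taken as pairs; the replicate block gave 1353 calls, 1464 within genotype and 1200 in the groups alone. Without KO replicate 1 the direction was reversed for Ifit1 and Isg15, named genes called with all libraries or without that one, and uncalled estimates such as Ifit2 and Ccl22 turned too. For Ifit1 and Isg15 the log2 fold changes ran from -0.074 to 1.75 and from -0.73 to 0.71 with each library left out. Of 144 genes of the naming rule or chosen later that were called, leaving out a library cost 25 to 37 their call.

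The interaction with OVA (11 genes) gave 42 with no filter, 25 with a stricter filter, 35 with the replicate block in either form, 1 in the groups alone, 2 there with the block, 105 by DESeq2 and 0 without either gene set, and 3 to 100 with a library left out. The interaction with untreated cells (1 gene) gave 7 with no filter, 22 by DESeq2, and 0 with a stricter filter, with the block within genotype, in the groups alone with or without the block, and without either gene set, and 0 to 81 with a library left out. The T-lineage ratio of 0.63 was 0.986 over all members and 0.589 to 0.713 with a library left out. The causes were not tested. Depth limits genes near 1 CPM or less, such as Cxcl11, Fcer1a and Nrn1.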

Other observations

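Of 82 tested genes within 5 Mb of the start of Rubcn on chromosome 16, 8 were called, 9.76% against 9.25% of all genes. Of 1166 tested genes that were at least 4-fold higher in KO after 4 h of Jurkat cells than in untreated KO, 99 were called higher in KO at 30 min (8.49%, against 5.58% of all genes) and 86 lower (7.38%, against 3.67%). Without KO replicate 1, 34 of them were called higher (2.92%, against 4.43%) and 149 lower (12.8%, against 3.16%). The set was chosen by the rise over untreated KO alone, so genes with a low level in untreated KO pass more readily. How much of the share called lower follows from this choice was not tested. Of the 74 genes called at least 2-fold higher in KO, 28 belonged to that set.

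Promoters of other lists were searched in the same windows. An NF-kB site, taken as GGG and TTTCC with any 2 bases between them on either strand, stood in 5 of 18 chemokine promoters with a window (27.8%) and in 5 of 26 cytokine promoters (19.2%), against 2.08% of all tested genes with a window. Among genes called higher in KO it stood in 2.63%, and among those called lower in 2.62%. The core of the interferon-stimulated response element stood in 7 of the 26 cytokine promoters (26.9%). These matches describe letters only.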
